A study of Rattus norvegicus with 3 samples.

Results

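The intergenic peaks of the olanzapine library are the H3K4me2 peaks on chromosomes 1 to 20 that the authors' annotation placed in the intergenic class, which in the peak list began 1007 bp from the nearest gene. They were 1753 of the 6998 olanzapine peaks on these chromosomes (25.1%, 95% Wilson interval 24.0 to 26.1%), of 7128 in the whole olanzapine list and of 26577 peaks in both peak lists of the series. Each row gives both flanking genes and the distance to each, and the nearest gene is the closer of the pair. ChIP-seq was performed on liver tissue of female Sprague-Dawley rats given olanzapine (3 mg/kg, 2 times a day by mouth for 9 weeks), clozapine (20 mg/kg, 2 times a day by mouth for 9 weeks) or vehicle (cookie dough pellets without drug), with 12 animals per group. The series has 1 library per group, each labelled with a single rat. All animals ate standard chow, and clozapine came to be given by syringe followed by a drug-free pellet. The clozapine list, with 9507 intergenic peaks on chromosomes 1 to 20, is set beside the olanzapine list. The vehicle library was not analysed here. Without replicates no test between the drugs could be made, and every interval covers the counting of peaks only.

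H3K4me2 is a dimethylated lysine on histone H3 that is found at promoters, around transcription start sites, and at enhancers, which can lie far from the gene they act on. Peaks outside annotated genes may therefore mark distal regulatory elements or promoters that an annotation lacks. Liver is mostly hepatocytes, with endothelial cells, stellate cells, Kupffer cells and cholangiocytes beside them. Of 10 hepatocyte markers, 7 had an olanzapine peak of their own, that is 1 in the upstream, 5' UTR, exonic or splicing class, among them Alb, Apob and Ttr, while Hnf4a and Serpina1 had neither an own peak nor an intergenic peak nearest to them. None of 29 markers of endothelial, stellate, Kupffer, bile duct, lymphocyte and neuronal cells had an own peak, and 3 of them, the endothelial markers Pecam1, Stab2 and Cdh5, were the nearest gene of an intergenic peak. In longer lists of the same 6 kinds of cell, 5 of 90 genes had an own peak, 3 of them cholangiocyte markers. Of all 18539 protein-coding genes with a curated RefSeq transcript, 22.7% had an own peak and 7.54% were the nearest gene of an intergenic peak.

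Sequences were available for RNA genes and promoters near these peaks, and they come from RefSeq on assembly GRCr8, not from the build of the peaks, Rnor_6.0. The mature microRNAs below are shown because their genes were the nearest gene of an intergenic peak and they belong to well studied families. The seed, bases 2 to 8, by which a microRNA pairs with its targets, is in capitals.
rno-let-7a-5p: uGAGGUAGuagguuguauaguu
rno-let-7g-5p: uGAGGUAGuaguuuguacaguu
rno-let-7c-5p: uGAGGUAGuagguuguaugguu
rno-miR-17-5p: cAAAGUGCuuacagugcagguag
rno-miR-30a-5p: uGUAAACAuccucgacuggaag
rno-miR-101a-3p: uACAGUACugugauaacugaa
rno-miR-29b-3p: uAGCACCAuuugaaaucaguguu

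MicroRNA genes were the nearest gene of 25 intergenic peaks, and these were 21 genes, or 4.51% of the 466 microRNA genes in the names table. The 3 let-7 members share the seed GAGGUAG, and let-7 is known as a brake on growth and cell cycle genes. The peak at Mirlet7a1 (chr17:16409474-16410479) lay 7374 bp from it, between Ptpdc1 and Mirlet7a1, with a fold enrichment of 5.22 and a -log10 p of 9.92, the strongest of the 25. The Mirlet7g peak (chr8:114866217-114867373) lay 7084 bp away with a fold enrichment of 4.58, and the Mirlet7c-2 peak (chr7:126553280-126553626) 36586 bp away with 3.34. The Mirlet7a1 and Mirlet7g peaks were over 1000 bp long (1006 and 1157 bp), and the Mirlet7c-2 peak was 347 bp long.

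Mir17, the first gene of the polycistronic miR-17 cluster, had a peak 2636 bp away (fold enrichment 4.17) and was also the nearest gene of a peak 1560 kb away, between Slitrk5 and Mir17 (4.82). Mir30a had a peak at 15.5 kb (3.88), Mir30d at 28.5 kb (4.85) and Mir101a at 17.5 kb (4.76). Mir29b1 had peaks at 64.1 and 159 kb, of 585 and 2682 bp (4.65 and 4.49). In all, 11 of the 25 peaks lay within 20 kb of the microRNA gene and 8 over 100 kb from it. Mature sequences were found for 18 of the 21 genes, and 2 of these, Mir504 and Mir3556b, stand on another chromosome in GRCr8 than in the peak list.

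The length of the intergenic peaks lay between that of intronic peaks and that of peaks at gene starts. Their median was 497 bp (quartiles 293 and 839, range 196 to 3837), against 397 bp for intronic peaks, 603.5 bp for upstream and 5' UTR peaks and 709.5 bp for exonic peaks. Over 1000 bp were 296 of them (16.9%, 15.2 to 18.7%), against 24.3% of all other olanzapine peaks (23.1 to 25.4%). Up to 200 bp were 138 (7.87%, 6.70 to 9.23%), against 4.46% of the others (3.94 to 5.05%), and 122 had exactly the shortest length in the list, 196 bp. They held 21.7% of the bases covered by olanzapine peaks, 1.10 of 5.10 Mb.

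**Figure D1:**
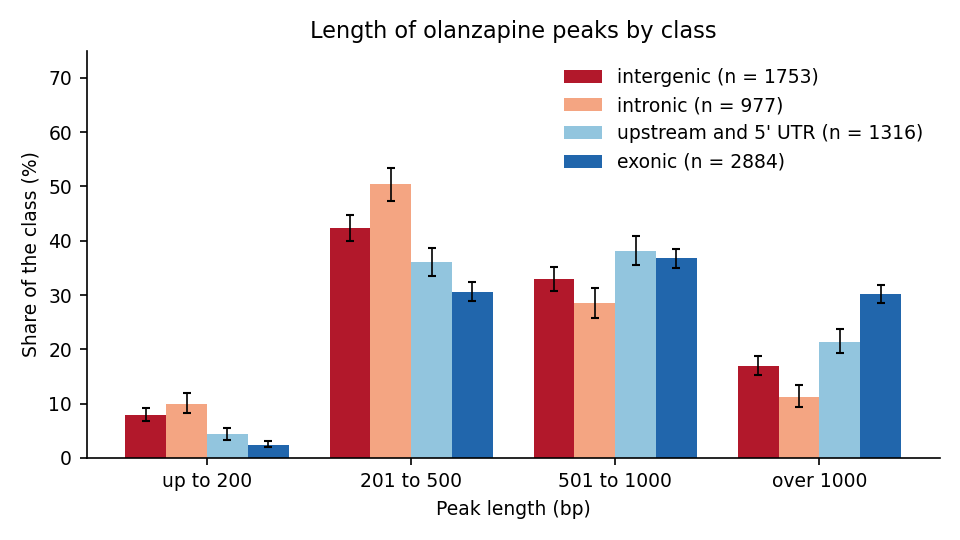
Share of each class of olanzapine peak on chromosomes 1 to 20 (y axis, %) in 4 ranges of peak length (x axis, bp), with 95% Wilson intervals as error bars. Intergenic peaks over 1000 bp (16.9%) lie between intronic (11.3%) and upstream and 5' UTR peaks (21.4%), and exonic peaks reach 30.2%.

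Fold enrichment, the ratio of ChIP signal to a background that the sources used here do not name, hardly separated the classes. It had a median of 4.31 in intergenic peaks (quartiles 3.92 and 4.85) and 4.28 in all other olanzapine peaks (3.86 and 4.84). Intergenic peaks were 30 of the 100 peaks with the highest -log10 p and 22 of the 100 with the highest fold enrichment, beside their 25.1% of the list. Across the 20 chromosomes they made up 19.0% (chromosome 20) to 30.2% (chromosome 18) of the olanzapine peaks. Per Mb they were densest on chromosome 10 (1.24) and chromosome 12 (1.16) and sparsest on chromosome 13 (0.41), and chromosomes 10 and 12 also had the most peaks of other classes per Mb (4.10 and 3.85).

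The intergenic peaks of the olanzapine library stood closer to genes than those of the clozapine library. The median distance to the nearest gene was 21.8 kb (95% interval of the median 20.0 to 23.7 kb, quartiles 7.72 and 62.7 kb, n = 1749), against 49.7 kb for clozapine (47.2 to 52.3 kb, n = 9413). Within 5 kb of a gene were 17.0% (15.3 to 18.8%), against 10.2% for clozapine (9.56 to 10.8%), and over 50 kb from any gene 29.8% (27.7 to 32.0%), against 49.9% (48.9 to 50.9%). The largest single class was 5 to 20 kb, with 538 olanzapine peaks (30.8%), and 279 peaks (16.0%) lay over 100 kb away. The clozapine peaks were mostly short, with a median of 171 bp, and those over 200 bp had a median distance of 50.7 kb (46.6 to 55.3 kb). The shortest peak was 196 bp in the olanzapine list and 170 bp in the clozapine list. The libraries also differ in depth, since the read tables of the study list far more genome reads for olanzapine than for clozapine at a like number of clean reads. The part of depth or shortest length in the difference in distance was not tested.

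**Figure D2:**
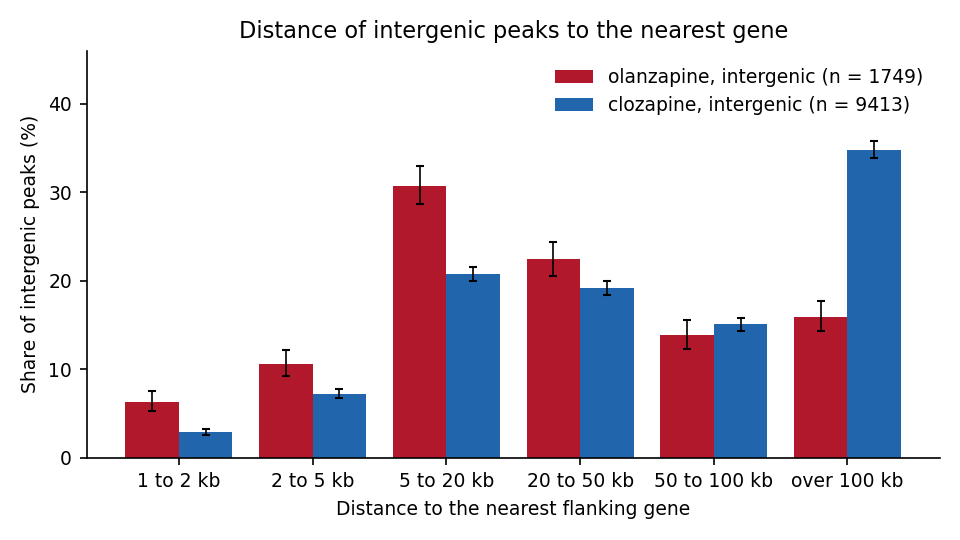
Share of intergenic peaks (y axis, %) by distance to the nearest flanking gene (x axis), for the olanzapine and the clozapine library, with 95% Wilson intervals as error bars. The olanzapine share is higher in the 4 classes up to 50 kb, and over 100 kb lie 16.0% of the olanzapine and 34.8% of the clozapine peaks.

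Among the olanzapine peaks the strongest stood closest to genes. The 107 intergenic peaks with a -log10 q of at least 5 had a median distance of 12.3 kb (8.98 to 17.8 kb), and the other 1646 of 22.5 kb (20.6 to 24.5 kb). Clozapine intergenic peaks with such a q stood at 49.7 kb (44.2 to 55.6 kb), the median of their whole list. The 352 peaks with a fold enrichment of at least 5 also lay closer than the whole, at a median of 16.4 kb (13.7 to 20.6 kb). Between distance classes the medians of length and fold enrichment moved little. The 111 peaks 1 to 2 kb from a gene had a median length of 513 bp and a median fold enrichment of 4.34, and the 279 peaks over 100 kb away 487 bp and 4.26.

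Nearest genes were protein-coding for 1631 of the 1753 peaks (1379 genes). Olfactory receptor genes (Olr) were nearest to 11 peaks and vomeronasal receptor genes (Vom) to 10, families that are read in the nose and lie in large arrays. A flank was listed on 1 side only for 53 peaks and on neither side for 4.

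The intergenic class rests on the annotation that the authors used, and on GRCr8, another assembly, further genes stand between many of the flanks. On GRCr8 the order of both flanks could be read for 1572 peaks, and for 897 of these (57.1%, 54.6 to 59.5%) at least 1 protein-coding gene stands between them, for 446 exactly 1. Counting only genes with a curated RefSeq transcript, the share was 42.4% (39.9 to 44.8%). The clozapine shares were lower, 50.3% (49.2 to 51.4%) and 31.8% (30.8 to 32.9%), although its flanks stood farther apart, with a median of 238 kb against 125 kb for olanzapine. Sorted by the distance between the flanks, the olanzapine share was above the clozapine share in each of 6 ranges. Set beside clozapine peaks over 200 bp, the olanzapine share in the range of 20 to 50 kb was 31.9% (26.5 to 37.8%), against 31.8% (26.5 to 37.6%). It was higher in the other 5 ranges, with overlapping intervals in those up to 20 kb and of 50 to 100 kb. These were 21.6% (15.3 to 29.6%) against 15.9% (10.8 to 23.0%), and 48.7% (43.2 to 54.3%) against 39.1% (34.1 to 44.3%). In the ranges over 100 kb the intervals did not overlap. Over 20 protein-coding genes stood between the flanks for 34 of the 1572 olanzapine peaks, with 520 between Selv and Vom2r10. Without such intervals the olanzapine share was 56.1% (53.6 to 58.6%). The part of differences between the assemblies or of name matching was not tested. No position of a peak on GRCr8 was derived, so these counts do not say that a peak lies in such a gene. This comparison was chosen after the values were seen.

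**Figure D3:**
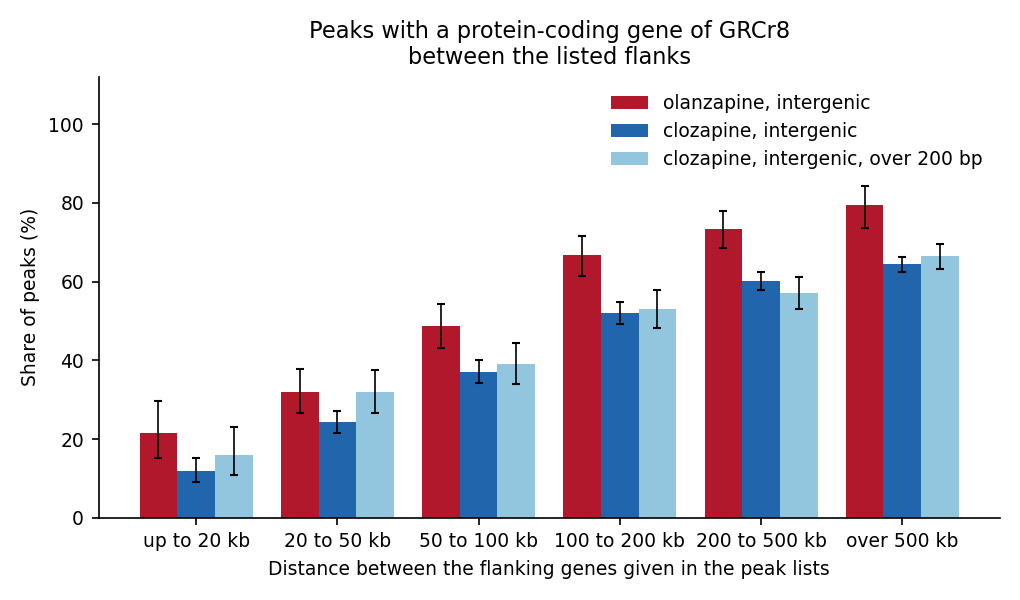
Share of intergenic peaks with at least 1 protein-coding gene of GRCr8 between the listed flanks (y axis, %), by the distance between the flanks on Rnor_6.0 (x axis), with 95% Wilson intervals as error bars, for olanzapine, clozapine and clozapine peaks over 200 bp. With flanks over 500 kb apart the shares are 79.4, 64.4 and 66.5%.

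Where exactly 1 protein-coding gene stood between the flanks, its promoter was read from RefSeq as the 250 bases before the transcription start. A count of 10 or more CG, the CpG pair, which reads the same on both strands, was found in 64.5% of 313 such promoters for olanzapine (59.1 to 69.6%) and in 43.8% of 788 for clozapine (40.4 to 47.3%). Of all 15165 promoters of genes with a curated transcript 57.7% held as many, and of all 19005 protein-coding genes 48.6%. The gene sets overlap, with 250 genes in both of 367 for olanzapine and 948 for clozapine. Among genes found for olanzapine alone, 57 of 100 promoters held as many (57.0%, 47.2 to 66.3%), close to the share of all curated promoters, and among those for clozapine alone 34.8% of 575 (31.0 to 38.8%). The listed nearest genes of olanzapine peaks had a like share, so it was not particular to genes between the flanks. It was 62.8% of 223 curated promoters within 5 kb (56.3 to 68.9%) and 63.3% of 332 over 50 kb (57.9 to 68.3%). The promoters below belong to the 3 strongest such peaks over 200 bp whose single gene has a curated transcript, and every CG is in capitals (GRCr8, each on the strand of its gene).
Washc4: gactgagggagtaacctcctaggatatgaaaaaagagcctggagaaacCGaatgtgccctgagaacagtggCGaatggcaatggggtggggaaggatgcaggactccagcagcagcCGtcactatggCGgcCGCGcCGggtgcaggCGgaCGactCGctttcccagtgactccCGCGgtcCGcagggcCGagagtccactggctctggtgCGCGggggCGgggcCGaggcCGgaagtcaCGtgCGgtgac
Nudt8: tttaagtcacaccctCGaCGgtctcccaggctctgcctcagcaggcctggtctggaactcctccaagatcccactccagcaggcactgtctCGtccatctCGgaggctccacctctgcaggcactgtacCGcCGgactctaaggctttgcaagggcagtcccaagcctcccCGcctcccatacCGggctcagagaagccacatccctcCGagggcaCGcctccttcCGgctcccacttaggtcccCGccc
Parp4: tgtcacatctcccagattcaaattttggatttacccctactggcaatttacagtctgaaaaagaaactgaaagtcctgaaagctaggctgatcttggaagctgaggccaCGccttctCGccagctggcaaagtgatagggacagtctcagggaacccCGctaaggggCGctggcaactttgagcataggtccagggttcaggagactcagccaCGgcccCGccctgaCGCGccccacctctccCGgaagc

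Washc4, a subunit of the WASH complex of endosomes, has 21 CG in this window and stands between Appl2 and Aldh1l2. The peak there (chr7:26360174-26361445, 1272 bp) had a fold enrichment of 8.32 and lay 14421 bp from Aldh1l2, a mitochondrial enzyme of folate metabolism, and 54048 bp from Appl2. Nudt8, a nudix hydrolase, has 12 CG, and the peak between Acy3 and Doc2g (chr1:219247660-219248352) had a fold enrichment of 7.56. Parp4, an ADP-ribosyltransferase of vault particles, has 9 CG, and the peak between Cenpj and Mphosph8 (chr15:36809374-36809598) had 7.02.

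By -log10 p, the strongest 10 intergenic peaks over 200 bp were of 2 kinds. Of these, 6 had a fold enrichment of 6.95 to 8.40. Their nearest genes were Arid3b, an AT-rich DNA-binding factor (1797 bp away, fold enrichment 8.40), Aldh1l2 (8.32), Med8, a Mediator subunit (4244 bp, 8.27), Copz2, a coatomer subunit (19032 bp, 7.37), Mef2a, a MADS-box transcription factor (10627 bp, 7.22) and Nfyc, a subunit of the CCAAT-binding factor NF-Y (10013 bp, 6.95). Between the listed flanks of Copz2 stand Cbx1 and Nfe2l1 on GRCr8. The other 4 had a fold enrichment of only 1.92 to 2.62 with a -log10 p of 13.1 to 16.0. They lay near Cdh8, a cadherin (196782 bp, 2.62), near the 5.8S ribosomal RNA gene Rn5-8s at 2 places (8628 bp, 2.51 and 8532 bp, 2.42) and near Pdia4, a protein disulfide isomerase of the endoplasmic reticulum (22184 bp, 1.92).

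These 4 were among 24 intergenic peaks with a fold enrichment under 2.8 (1.37%, 0.922 to 2.03%), against 7 of 5245 peaks of other classes (0.133%, 0.0647 to 0.275%). The limit was chosen after the values were seen. With a -log10 p over 8 there were 8 of them, whereas the other 171 intergenic peaks with such a p had a fold enrichment of at least 4.02. They gathered at few places, with 5 between Ezh2 and Pdia4 and 3 between LOC310926 and Rn5-8s. A further 3 lay beyond Rras2 and 2 beyond Cdh8, with no gene listed on the other side. Farther along chromosome 1 than those of Rras2, 2 had no flank at all. The Rn5-8s flank was listed for 6 peaks on these chromosomes, of which 4 were under the limit. Slc2a2, the glucose transporter GLUT2 of hepatocytes, had its only intergenic peak among them, 120028 bp away with a fold enrichment of 2.35. Repeat content and mappability of these places were not tested.

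**Figure D4:**
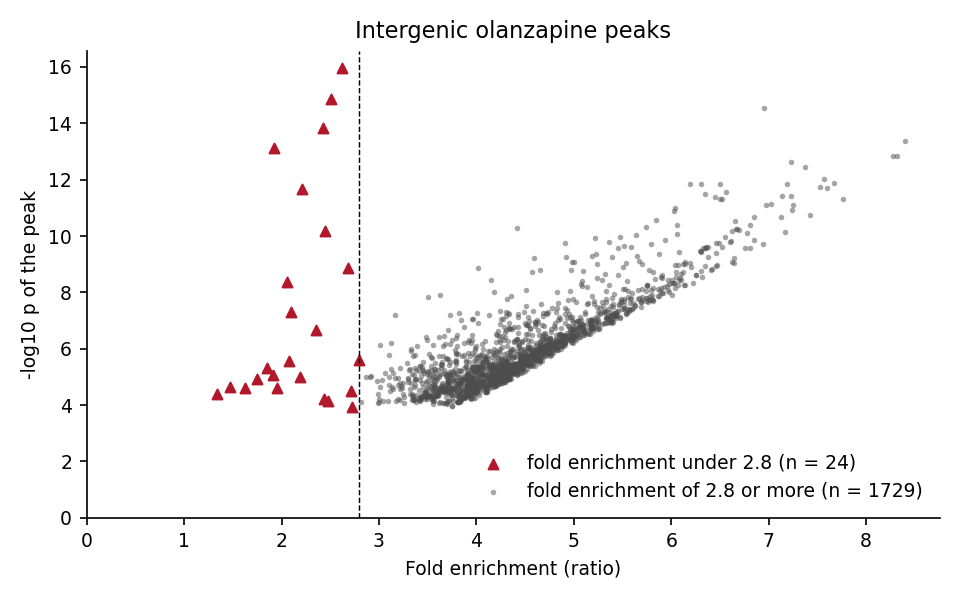
Fold enrichment (x axis, ratio) and -log10 p (y axis) of the 1753 intergenic olanzapine peaks, 1 point per peak. Of the 24 peaks under a fold enrichment of 2.8 (dashed line), 8 exceed a -log10 p of 8, where the other peaks begin at a fold enrichment of 4.02.

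The longest intergenic peaks were 2450 to 3837 bp, with a fold enrichment of 3.89 to 5.22. The longest (chr18:59830757-59834593) lay 11644 bp from RGD1562699 and 107399 bp from Fech, an interval in which GRCr8 places Onecut2, a liver transcription factor. C1qtnf7 was nearest to a peak of 3170 bp, 352041 bp away. A pair lay near genes of hepatocyte products, Hrg, a plasma glycoprotein (3121 bp long, 37370 bp away, fold enrichment 5.05), and Ass1, argininosuccinate synthase of the urea cycle (2804 bp long, 3635 bp away, 4.93). The others lay near Mir29b1, Crybb3, Cdk2ap2, Rbm47, Irf2, an interferon regulatory factor, and Il1r1, the interleukin 1 receptor (2450 bp long, 32912 bp away). Cdk2ap2 and Il1r1 had an own peak besides.

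Among the 1749 peaks with a listed distance, the farthest lay between 2 genes listed as Vom2r56, 1914 kb away. The 4 peaks with no listed flank have no distance and were not ranked. Beyond Rras2, a small GTPase, 3 peaks lay 1795 to 1842 kb away with fold enrichments of 1.34 to 1.92. Slc10a2, the bile acid transporter of the ileum, was nearest to a peak at 1819 kb (4.06).

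Intergenic peaks had close neighbours about as often as olanzapine peaks as a whole. Another olanzapine peak of any class lay within 5 kb of 217 of them (12.4%, 10.9 to 14.0%), beside 12.47% of all olanzapine peaks. For 153 of the 217 that neighbour was itself intergenic, with a median gap of 1285 bp, and for 40 it was exonic, with a median gap of 2714.5 bp. Peaks were joined into a cluster across gaps up to the length commonly used to join neighbouring enhancers, and 226 peaks (12.9%, 11.4 to 14.5%) fell into 106 clusters. Of the clusters 13 held 3 or more peaks, and 1 held 4.

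The cluster of 4 lay between Ezh2 and Pdia4 over 13.4 kb, and 3 of its peaks had a fold enrichment of 1.92 to 2.68, against 4.88 for the other. Next by summed length came 3 peaks between Spen and Fblim1 over 21.2 kb (fold enrichment 4.44 to 4.69), where GRCr8 lists no gene in between. Spen is a nuclear corepressor and Fblim1 a protein of cell adhesion sites. Near Acsl1, which activates long-chain fatty acids, 3 peaks of 622 to 1738 bp lay at 14735 to 19943 bp, and a further peak at 58370 bp. Another 3 lay 129 to 143 kb from Tmc8, on the side of Sept9, and 3 lay 93774 to 99757 bp from Actg1, cytoplasmic gamma actin. In the last interval, LOC690871 to Actg1, 7 peaks stood in all, with a second cluster of 3 on the side of LOC690871.

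Counted by interval, the 1696 peaks with both flanks fell into 1368 intervals, of which 250 held 2 or more peaks, 52 held 3 or more and 5 held 5 or more. The most was 7 peaks, in 3 intervals. The flanks LOC100911360 and Ice2 stood 2091 kb apart, with peaks from chr8:73672629 to 75517419. Between these flanks GRCr8 places Vps13c and Rora, a nuclear receptor of lipid metabolism and the clock. Between Abcc2 and Cpn1, 4 peaks had fold enrichments of 4.40 to 6.06, with Dnmbp in between on GRCr8.

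A peak next to a gene did not mean that the gene had its own. At least 1 flanking gene had an own olanzapine peak for 777 of 1696 peaks (45.8%, 43.5 to 48.2%) and the nearest gene for 462 (27.2%, 25.2 to 29.4%). Around the intergenic peaks of clozapine, the same olanzapine own peaks gave 45.2% (44.1 to 46.2%) and 27.0% (26.1 to 28.0%). Of the 2464 flanking genes with a curated transcript 28.0% had an own peak (26.3 to 29.8%), beside 22.7% of the 18539 such genes in the names table. Within 5 kb the nearest gene had one for 30.3% of peaks (25.3 to 35.8%), and over 50 kb for 24.5% (20.8 to 28.5%).

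Of the genes with a curated transcript, 7.54% were the nearest gene of an intergenic olanzapine peak. In 17 lists of pathways, transcription factors and housekeeping genes the share was 65 of 406 genes (16.0%, 12.8 to 19.9%). In 6 lists of markers of other cell types it was 8 of 90 (8.89%, 4.57 to 16.6%). Of these 6, the liver endothelial list gave 3 of 14 (21.4%, 7.57 to 47.6%), and only its interval lay above the 7.54%. The gaps around the list genes were not compared with those around other genes, and the part of gap size was not tested. Of the 65 genes, 30 had no own peak, and of all 406 genes 239 had one. The peaks are given below by the role of the nearest gene in the authors' annotation, each with its distance and fold enrichment. Between the listed flanks of some of them GRCr8 places other protein-coding genes, as at Ern1 (Tex2), Mlxipl (Tbl2) and Slc27a5 (2 genes). Between the flanks of others it places none.

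**Figure D5:**
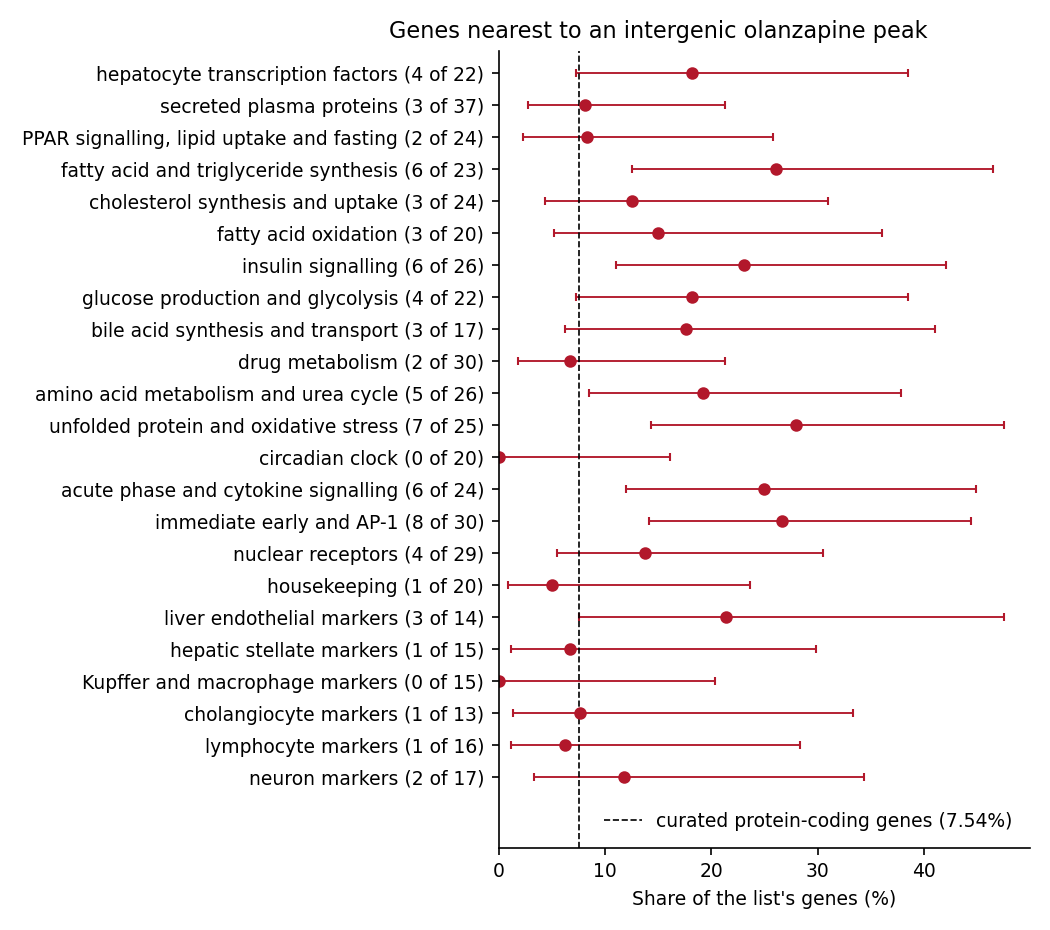
Share of the genes of each list (x axis, %) that were the nearest gene of an intergenic olanzapine peak, with 95% Wilson intervals as error bars and the number of genes after the list's name. The dashed line marks the 7.54% of all genes with a curated transcript, which the intervals of 16 lists hold and those of 7 lie above.

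Among hepatocyte transcription factors 4 of 22 were nearest genes, and all 4 also had an own peak, as had 17 of the 22. Gata6, a factor of endoderm, had peaks at 49.0 and 52.6 kb (5.70 and 4.36), and Cebpb, which drives acute phase and gluconeogenic genes, at 7805 bp (chr3:164416030-164416697, 4.71). Prox1, known in liver and lymphatic endothelium, had a peak at 2717 bp (3.95). Cebpa flanked a peak at 48234 bp (4.32) that lay closer to Slc7a10. Hnf4a and Foxa2 flanked none.

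Nuclear receptors (4 of 29) and PPAR signalling (2 of 24) shared Rxra, the common partner of PPARs, with a peak of 198 bp at 36.1 kb (5.35). Nr3c1, the glucocorticoid receptor, had a peak of 1698 bp at 1601 bp (4.84), and Nr2c2 a peak at 26.2 kb (4.52). Plin2, a coat protein of lipid droplets, had peaks at 16.3 and 89.4 kb (3.80 and 3.73). Pparg, Ppara and Angptl4 had own peaks and flanked no intergenic peak.

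Fatty acid and triglyceride synthesis had 6 of 23 genes, of which only Fads2 had an own peak, beside 12 of the 23 in the whole list. Fads2, a fatty acid desaturase, had a peak at 25.8 kb (5.52), and Elovl5, an elongase, a pair at 38.0 and 45.3 kb (4.67 and 5.43). Insig2, which holds SREBP in the endoplasmic reticulum, had a pair at 9322 and 11425 bp (3.83 and 4.69). Acaca and Acacb, the acetyl-CoA carboxylases, had peaks at 13.3, 15.2 and 8.62 kb, and Mlxipl, the carbohydrate-responsive factor ChREBP, at 10.9 kb.

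For cholesterol (3 of 24) the peaks included 4 near Abca1, the exporter of cholesterol to HDL, at 10676 to 29210 bp (4.13 to 4.89), and 1 near Fdps, an enzyme of cholesterol synthesis, at 3383 bp (3.84). Fdps had an own peak and Abca1 had none. In fatty acid oxidation (3 of 20) Acadl, the long-chain acyl-CoA dehydrogenase, had a peak of 1731 bp at 16.5 kb (4.83) beside the peaks of Acsl1, and Etfb, an electron transfer flavoprotein subunit, had peaks at 7967 bp and 261 kb.

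Insulin signalling had 6 of 26 genes. Foxo1, which insulin keeps out of the nucleus, was nearest to a peak at 285 kb (5.51). The kinases Akt1 and Akt2 had peaks at 2116 and 9075 bp (5.03 and 4.09), the Akt2 peak being 2401 bp long, and Pik3r1, the regulatory subunit of PI3 kinase, at 8528 bp (3.73). Foxo1 and Gsk3b had own peaks and the other 4 had none, beside 13 of the 26 with an own peak in the whole list. Glucose metabolism (4 of 22) had Slc2a2, Ugp2 at 49.6 kb (4.77), Eno1 at 19.6 kb (4.34) and Gckr, the regulator of glucokinase, at 40.3 kb (3.47). Pck1 and Igfbp1 flanked no intergenic peak.

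Bile acid genes (3 of 17) were Slc27a5, a bile acid ligase, with 3 peaks at 14.3 to 30.8 kb, Abcc2, a canalicular exporter, with peaks at 2601 bp (4.99), 51.3 and 53.5 kb, and Cyp8b1, the 12-alpha-hydroxylase, at 5143 bp (4.70). Cyp7a1 flanked none. In drug metabolism (2 of 30) Fmo5 had peaks at 4791 and 24962 bp and Ephx1, the microsomal epoxide hydrolase, at 29.6 and 31.5 kb. Amino acid metabolism (5 of 26) had Ass1 (4.93 at 3635 bp and 4.14 at 16034 bp), Cps1, the first enzyme of the urea cycle, at 16.8 kb (5.17), the transporter Slc38a4 at 70.9 kb (5.05), Tat, tyrosine aminotransferase, at 10.3 kb (4.75) and Ahcy at 33.2 kb (4.23). Only Ahcy of these had an own peak, beside 15 of the 26 in the whole list.

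Secreted plasma proteins gave 3 of 37. Apoa4 had a peak at 1078 bp (4.52), Ahsg, fetuin A, at 2544 bp (4.64) and Alb, albumin, at 44143 bp (3.97), the last 196 bp long. A second peak on the same side of Alb (507 bp, 4.64), 101740 bp away, lay closer to Ankrd17. In the acute phase and cytokine list (6 of 24) Il6st, the signalling subunit of the interleukin 6 receptor, had a peak of 1275 bp at 10.2 kb (6.32), Fgl1 at 52.1 kb (4.30) and Il1r1 at 32.9 kb (4.17).

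Stress genes had the highest share of the 23 lists, 7 of 25. Herpud1, of endoplasmic reticulum degradation, had a peak at 43.1 kb (7.24) and Ern1, the sensor IRE1, peaks at 27.9 and 43.9 kb (4.85 and 6.19). Pdia4 had 5 peaks, 3 of them under a fold enrichment of 2.8. Immediate early genes gave 8 of 30, among them Gadd45a at 68.0 kb (5.75), Ier2 at 6920 bp (5.62), Ier3 at 18.8 kb (4.82), Jun at 23.3 kb (4.25) and Myc at 57.4 and 179 kb (4.31 and 4.30). No gene of 20 of the circadian clock was a nearest gene (0%, 0 to 16.1%), and this interval holds the 7.54% of all genes with a curated transcript. Per1 flanked a peak 4240 bp away (3.52) that lay closer to Vamp2. The housekeeping list gave 1 of 20, Actb at 22.9 kb (3.89).

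Markers of other cell types were nearest genes without own peaks in all 8 cases, and of all 90 such markers 5 had an own peak. The endothelial markers were Stab2 at 11.1 and 27.2 kb (5.15 and 3.87), Cdh5 at 40.8 kb (4.52) and Pecam1 at 43.0 kb (3.90), and Pecam1 shares its interval with Ern1. The rest were Col1a2 at 187 kb (4.64), Sctr at 17958 bp (4.33), Cd8a at 62.2 kb (4.49), Gad2 at 225 and 229 kb and Nefl at 171 kb. Between the flanks of these peaks GRCr8 places 13 protein-coding genes at Col1a2, 4 at Gad2 and 1 each at Sctr, Cd8a and Nefl. None of 15 Kupffer and macrophage markers was a nearest gene (0%, 0 to 20.4%), and this interval too holds the share of all genes.

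Few intergenic peaks met the clozapine list. A clozapine peak overlapped 30 of the 1753 by at least 1 bp (1.71%, 1.20 to 2.43%), against 134 of 5245 other olanzapine peaks (2.55%, 2.16 to 3.02%), beside 2.34% of all olanzapine peaks. The overlapping clozapine peak was intergenic in 29 cases and downstream of a gene in 1. Among them were peaks near Id2, an inhibitor of helix-loop-helix factors (fold enrichment 5.05 with olanzapine and 4.91 with clozapine), Tcf3 (5.89 and 3.72), Rxra (5.35 and 3.14) and Idnk (1999 and 1867 bp long). The clozapine peaks at Id2, Tcf3 and Rxra were 172, 170 and 170 bp long, where the shortest of that list is 170 bp. Of the 24 peaks under a fold enrichment of 2.8, 3 overlapped a clozapine peak.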

How the data were processed

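H3K4me2 ChIP-seq peak lists of 1 olanzapine and 1 clozapine library were used, grouped by their treatment labels. The authors aligned clean reads to Rnor_6.0 (named in the submitters' processing notes too) by BWA, keeping reads that mapped at a single place and had no mismatch. The peak caller, its threshold, its control and the annotation version are not given in the sources used here, and the paper names more than 1 read layout and sequencer. In the deposited lists the authors give each peak a class, flanking genes, a fold enrichment (ratio), and -log10 of p and q, which were used to describe and rank peaks. The lists give no reads per peak, so the depth behind a single value is unknown. The study does give reads per library, with far fewer genome reads for clozapine than for olanzapine, and these were not used in any value here. Tables of the authors' gene term enrichment and short sheets of selected peaks (9 and 16 rows, all in the full lists) were not used.

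Distances were taken from the lists. Positions count from 1. Of 2588 flanking gene names 2531 (97.8%) matched a RefSeq names table of GRCr8, used for gene kinds and gene order, with 18539 protein-coding genes with a curated transcript as background. Clusters join peaks with gaps of at most 12.5 kb. Shares carry 95% Wilson intervals and medians a binomial interval. The members, the cell type markers and the 23 gene lists were chosen with earlier results of these data known. Named genes are the nearest genes of the 10 strongest peaks over 200 bp, the 10 longest, the 5 largest clusters and the 5 farthest peaks, up to 3 per list, and 12 fixed by name. Some list members and genes between flanks are counted but not reported here by name. MicroRNA genes, other list members, single genes between flanks, intervals with many peaks and overlapped peaks were named after their values were seen. Alternatives were a -log10 q or a fold enrichment of at least 5, peaks over 200 bp, all chromosomes, and other distance, cluster and overlap rules. Simulated data were used to test the overlap and cluster steps, and 100% of 200 planted overlaps among 2000 peaks were recovered. Tools were pandas 2.3.3 and numpy 2.4.6 under Python 3.11.15, with scipy 1.17.1 for intervals and matplotlib 3.10.9 for figures.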

Additional observations from a re-analysis of the deposited data

Results flagged for a closer look

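Outside chromosomes 1 to 20 the olanzapine list held 52 further intergenic peaks that entered no comparison, 35 on chromosome X and 17 on scaffolds. Those on chromosome X had a median fold enrichment of 4.38 and a median length of 514 bp, and those on scaffolds 5.10 and 565 bp. They stand out only as signal outside the chromosomes described.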

How the results depend on the processing

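Of 76 recomputed values over 12 results, 43 stayed within the interval of the value given, or within 1.5 times a count, and 33 moved. With all chromosomes and scaffolds, and without peaks of fold enrichment under 2.8 (chosen after seeing the data), all 12 results stayed. At a -log10 q of at least 5 (107 peaks) the median distance was 12.3 kb, the shares within 5 kb and over 50 kb 27.1 and 23.4%, the median length 411 bp, the median fold enrichment 6.35, the share in clusters 1.87%, that with another peak within 5 kb 1.87%, that with a flanking gene that has its own peak 5.83%, the overlap 0% and the nearest genes in lists 5 instead of 73. Fewer peaks enter those values, own peaks included. At a fold enrichment of at least 5 (352 peaks) the median distance was 16.4 kb, the share over 50 kb 26.7%, the length 421.5 bp, the fold 5.52, clusters 2.56%, another peak within 5 kb 2.56%, own peak 9.68%, overlap 0% and list genes 15. Over 200 bp the median length was 538 bp and the overlap 0.867%. Each of these cuts by q, fold enrichment or length was also made in the clozapine list. An overlap therefore counted only where both peaks passed the cut. The olanzapine peaks near Id2, Tcf3 and Rxra had fold enrichments of 5.05, 5.89 and 5.35, and they overlapped clozapine peaks of 4.91, 3.72 and 3.14. By covered bases the intergenic share was 21.7%. Clusters held 8.78% of peaks at a gap of 5 kb, 18.4% at 25 kb and 2.28% with 3 or more peaks. Another peak lay within 1 kb of 2.40% and within 20 kb of 29.0%. An own peak was found for 27.2% by nearest gene only and 16.5% in upstream and 5' UTR classes only. Overlap was 1.14% at 50% of the shorter peak and 4.28% within 1 kb. List genes were 117 by either flank and 42 within 20 kb. No paired analysis was possible because each group has 1 library. Reads per peak are not in the lists used, the libraries differ in depth, and the series holds no replicate of the olanzapine library.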
